A study of Mus musculus with 2 samples.

Results

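Vomeronasal receptors are the chemoreceptors of the vomeronasal organ, the nasal organ with which mice sense pheromones. They were taken here as every gene whose name on the arrays starts with V1r, V2r, Vmn1r or Vmn2r, whatever its value. This gave 117 genes of 17831, with 77 on array 1 and 40 on array 2. Of these, 112 were V1R genes of 12 subfamilies (V1ra to V1rl) and 5 were V2R genes (Vmn2r1, Vmn2r10, Vmn2r26, Vmn2r81 and Vmn2r89), on 8 chromosomes in all. The names are those of the array design, and 111 of the 117 matched 1 current gene symbol in RefSeq's table of assembly GRCm38.p6.

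The study used chromatin immunoprecipitation on promoter arrays to map where CREM lies in adult male germ cells. CREM is a cAMP-responsive transcription factor related to CREB, and it activates genes in haploid male germ cells. The CREM group was chromatin precipitated with an antibody against CREM (catalogue number sc-440) and labelled with Cy5. The IgG group, its negative control, was chromatin precipitated with goat IgG and labelled with Cy3. Both came from formaldehyde-fixed germ cells of adult male C57BL/6 mice, pooled from 5 testes, and carried no allele or treatment that the labels name. The 2 channels were read on the same 2 arrays, which shared 0 probes. There was 1 hybridisation of each array and no dye swap, so no value has a replicate, no test across samples was possible, and dye and antibody cannot be told apart in any ratio.

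V1R and V2R proteins are G protein-coupled receptors on the sensory neurons of the vomeronasal organ. V1R neurons signal through the G protein subunit Gnai2 and V2R neurons, whose receptors have a large extracellular domain, through Gnao1. Each neuron expresses 1 or a few receptor genes, which lie in AT-rich clusters of near copies. The arrays measured precipitated DNA, so whether any receptor was expressed in these cells was not measured. CREM recognises the cAMP response element TGACGTCA, whose core is TGACG, or CGTCA on the other strand.

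The measure was log2 of the processed CREM signal over the processed IgG signal, centred on the median of each array. A window was formed by 3 adjacent probes if each started no more than 500 bp after the one before. The window took the median of its probes as its value, and the gene of its middle probe as its gene. Windows at 1 or above (2-fold toward CREM) and at -1 or below (2-fold toward IgG) were counted. On the arrays, 2080 probes were named for vomeronasal receptors, and 1876 were used because they were well above background in at least 1 channel. Of the 117 genes, 115 had a used probe (all but V1rc10 and V1rc16) and 94 had at least 1 window, 1120 windows in all. Those 94 were 92 V1R genes and 2 V2R genes (Vmn2r1 and Vmn2r89). The other 23 genes had no 3 used probes close enough together, and the 90 used probes among them held 9 values at 1 or above and 3 at -1 or below. Over all used probes, 29.2% were at 1 or above where IgG was not well above background and 4.86% where it was. At -1 or below the shares were 1.26% and 7.74%. The few values of these genes are not read as a result about them.

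Sequences are shown for the probes behind the extreme values, since these are the stretches of receptor loci on which the results turn. All are probe sequences from the scanner files, 5′ to 3′ as printed on the array, with positions in mouse build mm9 (NCBI build 37) and CG pairs in capitals. The highest window of all lay at V1rj2 (current symbol Vmn1r89) and its 3 probes held no CG pair.
V1rj2 probe 1, chr7:13803379-13803438: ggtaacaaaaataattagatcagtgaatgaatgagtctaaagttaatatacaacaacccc
V1rj2 probe 2, chr7:13803755-13803814: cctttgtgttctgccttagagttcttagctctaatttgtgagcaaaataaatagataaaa
V1rj2 probe 3, chr7:13803893-13803952: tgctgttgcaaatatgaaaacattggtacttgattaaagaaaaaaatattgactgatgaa
The next 3 are the window of V1rf1 (Vmn1r234), which kept the largest ratio once dim IgG signals were treated as bounds.
V1rf1 probe 1, chr17:21365578-21365637: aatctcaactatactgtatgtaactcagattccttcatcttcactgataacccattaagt
V1rf1 probe 2, chr17:21365715-21365774: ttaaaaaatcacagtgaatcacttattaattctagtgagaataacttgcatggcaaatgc
V1rf1 probe 3, chr17:21365850-21365909: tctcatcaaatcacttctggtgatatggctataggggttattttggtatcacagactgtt
The next 3 are the window of V1rh20 (Vmn1r211), the highest for which every probe exceeded background clearly in CREM and in IgG.
V1rh20 probe 1, chr13:22943120-22943179: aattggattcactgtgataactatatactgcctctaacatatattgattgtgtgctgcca
V1rh20 probe 2, chr13:22943322-22943381: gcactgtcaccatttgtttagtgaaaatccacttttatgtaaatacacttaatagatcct
V1rh20 probe 3, chr13:22943540-22943599: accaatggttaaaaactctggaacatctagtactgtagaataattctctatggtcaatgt
The last 3 are the lowest window, at V1rf2 (Vmn1r235).
V1rf2 probe 1, chr17:21392838-21392897: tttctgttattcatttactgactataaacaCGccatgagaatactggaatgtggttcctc
V1rf2 probe 2, chr17:21393034-21393093: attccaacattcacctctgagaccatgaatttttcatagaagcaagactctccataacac
V1rf2 probe 3, chr17:21393187-21393242: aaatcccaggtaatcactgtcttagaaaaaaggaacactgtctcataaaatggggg

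Across the 94 receptor genes with a window, ratios stayed close to 0 and few passed 2-fold in either direction. The highest window reached 1 or above in 18 genes (19.1%, exact 95% interval 11.8% to 28.6%), against 34.4% of all 17327 gene entries with a window. The lowest window was at -1 or below in 3 genes (3.19%, interval 0.663% to 9.04%), against 33.6% of all genes. With the GC trend of each array removed, 14 receptor genes (14.9%) were at 1 or above, against 30.7% of all genes, and 10 were at -1 or below, against 12.6% of all genes. The gap on the IgG side was thus much smaller without the GC trend. The median of the highest windows was 0.48 for vomeronasal receptors and 0.77 for all genes, and the median of the lowest windows was -0.46 and -0.76. Intervals here cover counting error only.

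Olfactory receptor genes, the other large family of nose receptors, had a close share on the CREM side and a larger one on the IgG side. On array 1 the highest window was at 1 or above in 12 of 57 receptor genes (33.3% of all genes) and the lowest at -1 or below in 1 (34.4% of all genes). On array 2 the counts were 6 of 37 (35.6%) and 2 (32.9%), so both arrays showed smaller shares of receptors than of all genes. Among vomeronasal receptors 19.1% had a highest window at 1 or above, and among the 795 olfactory receptor genes 18.7% did. At or below -1 the share was 3.19% for vomeronasal receptors and that of olfactory receptors had an interval of 8.52% to 12.9% (84 of 795 genes), so the intervals overlap. The highest window of any vomeronasal receptor was 1.84, against 2.25 for olfactory receptors and 4.23 for all genes. The lowest was -1.31, against -1.72 and -4.72.

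Counted by window, 27 of the 1120 receptor windows were at 1 or above (2.41%, interval 1.59% to 3.49%), against 5.99% of 350287 windows of all genes and unnamed regions. At -1 or below there were 5 receptor windows (0.446%, interval 0.145% to 1.04%), against 4.56% of all windows. With the GC trend removed this order was reversed, at 1.61% of receptor windows and 1.24% of all windows. Neighbouring windows share probes, so windows are not independent. Most receptor windows, 77.9%, lay between -0.5 and 0.5, against 75.3% of olfactory receptor windows and 67.1% of all windows. In 74 genes neither extreme passed 2-fold, and in 25 of the 94 every window lay between -0.5 and 0.5. These 2 counts were not taken over all genes, so they describe the receptors and do not set them apart.

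Receptor genes had fewer windows than other genes, a median of 11 against 15 for olfactory receptors and 19 for all genes, and an extreme grows with the number of windows. At 1 to 9 windows the highest reached 1 in 5 of 41 vomeronasal receptor genes (12.2%), 6.36% of olfactory receptor genes and 18.1% of all genes. At 10 to 19 windows it did so in 8 of 35 vomeronasal receptor genes (22.9%), 18.0% of olfactory receptor genes and 34.3% of all genes. With 20 windows or more it did so in 5 of 18 vomeronasal receptor genes (27.8%), 31.2% of olfactory receptor genes and 39.5% of all genes. The share thus grew with the window number in each set, and that of vomeronasal receptors was below that of all genes in each class. The classes hold few receptor genes and no interval was taken, so a difference at equal window number was not tested.

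The receptors at 1 or above came from 6 V1R subfamilies, to be read against the 34.4% of all genes called. V1rc, on chromosome 6, gave 7 of its 16 genes with a window. V1rf, on chromosome 17, gave 3 of 5, and V1rj, on chromosome 7, gave both of its 2. All 3 shares were above that of all genes, over few genes each. V1rg gave 2 of 10 and V1rh, on chromosome 13, gave 2 of 15, while V1re gave 1 of 8 on chromosome 17 and 1 of 4 on chromosome 7. In V1ra, V1rb, V1rd, V1ri, V1rk and V1rl, with 6, 8, 8, 8, 1 and 1 genes with a window, no gene reached 1. The V1ra and V1rb genes form a cluster of their own on chromosome 6, known from a mouse line in which its deletion altered mating and maternal aggression, and their highest window was 0.77, at V1rb7. The subfamilies also differed in brightness, with the IgG channel well above background at 52.0% of the used V1rc probes, 75.3% of the V1ra probes and 80.3% of the V1rb probes. In the other subfamilies with called genes it was 62.9% (V1rg), 63.3% (V1rf), 72.2% (V1rj), 72.7% (V1rh), and 70.7% and 73.6% (V1re on chromosomes 7 and 17). In the others without, it was 68.7% (V1rd), 68.75% (V1rk), 76.9% (V1ri) and 82.8% (V1rl). The part of brightness in the subfamily counts was not tested.

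**Figure D1:**
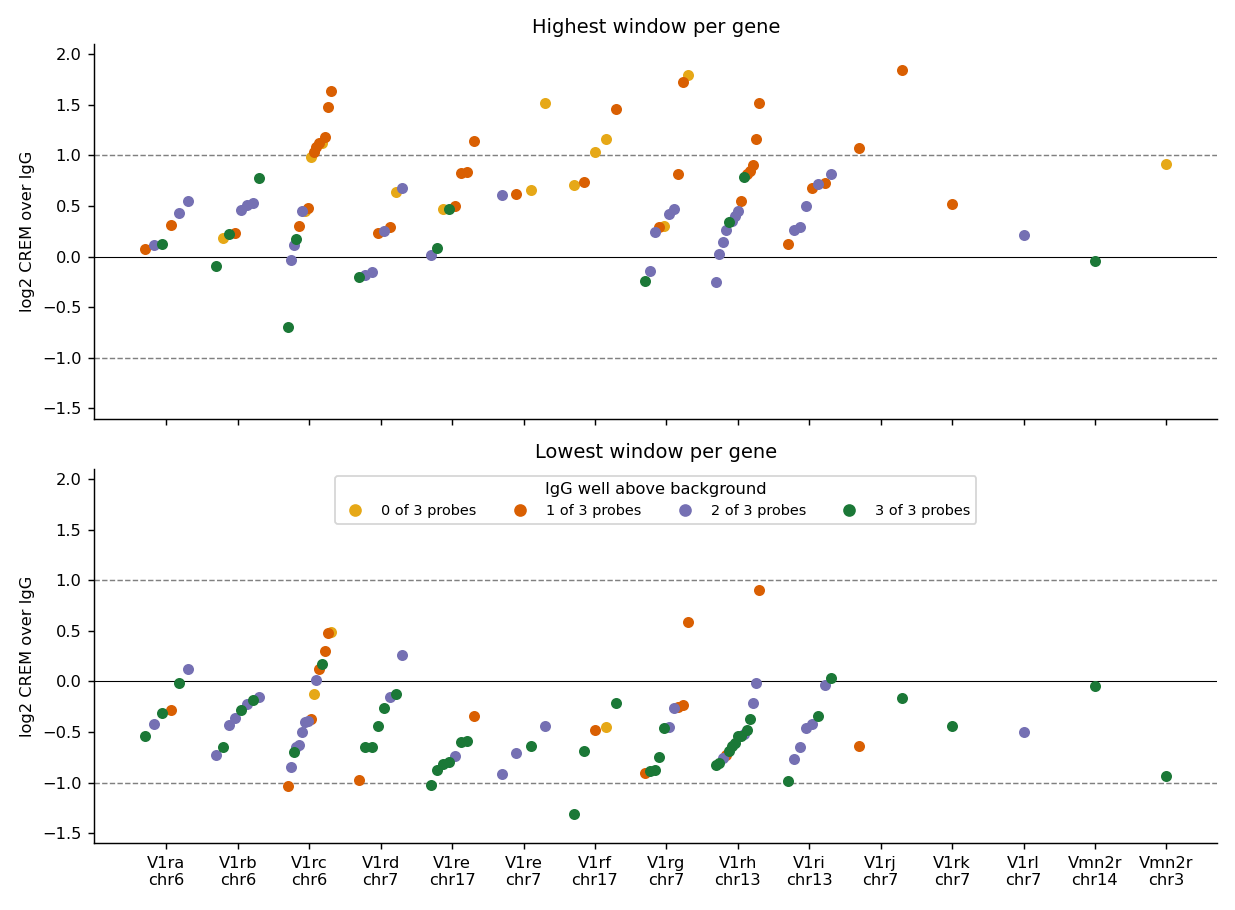
Highest (upper panel) and lowest (lower panel) window of each of the 94 vomeronasal receptor genes, as log2 CREM over IgG, by subfamily and chromosome. Colour gives how many of the window's 3 probes had an IgG signal well above background, and dashed lines mark 1 and -1. The 18 points at or above 1 in the upper panel all have 0 or 1 such probe.

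V1rj2 and V1rj3 belong to a subfamily known for receptors of sulfated steroids. At V1rj2 the 3 probes printed above had CREM signals of 1376, 283 and 239.8 against IgG signals of 966, 62.5 and 65.8. Their log2 ratios were 0.49, 2.16 and 1.84, so the window stood at 1.84. The first probe alone had an IgG signal well above background, and it was the lowest of the 3 ratios. V1rj3 (Vmn1r85) had a highest window of 1.08, also with 1 probe well above background in IgG.

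The V1rg receptors followed. At V1rg11 (Vmn1r84, chr7:12949841-12950189) the ratios were 0.38, 1.79 and 1.92, from CREM signals of 176, 251 and 251 against IgG signals of 133, 71.3 and 65.2. At V1rg8 (Vmn1r83, chr7:12910767-12911172) they were 1.84, 1.72 and 0.17, from CREM signals of 230.2, 354 and 656 against IgG signals of 63.2, 105 and 574. In both genes the ratio was highest where IgG was dimmest, and at V1rg8 the probe with the brightest signals had the smallest ratio. V1rg1 (Vmn1r72) was at the other end, with a highest window of -0.24 over 3 probes that were bright in both channels.

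V1rc held the most called genes. V1rc5 (Vmn1r13, chr6:57156749-57157206) had a window of 1.64 from probes at 0.12, 1.64 and 2.06, with CREM signals of 831, 200.3 and 260.3 against IgG signals of 751, 63.4 and 61.3. V1rc19 (Vmn1r5, chr6:56932565-56933389) had 1.48 from probes at 1.48, -0.056 and 2.00, the middle one being the only one bright in IgG. V1rc20 (Vmn1r6) had 1.19, V1rc28 (Vmn1r21) 1.12, V1rc17 1.12, V1rc24 1.09 and V1rc6 (Vmn1r15) 1.03. V1rc6 was also called on the IgG side, at -1.03, the 1 receptor gene with windows past 2-fold in both directions. The lowest of all highest windows, -0.70, was also in V1rc.

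Among V1rf genes, V1rf4 (Vmn1r236, chr17:21423682-21423963) had 1.46 from probes at 1.59, 1.46 and 0.63, with CREM signals of 175, 168 and 481 against IgG signals of 57.5, 60.5 and 306. V1rf3 (Vmn1r237) had 1.16, with probes at 1.16, -0.24 and 1.42. V1rf1 had 1.04, with CREM signals of 578, 111 and 593 against IgG signals of 278, 58.1 and 142, and ratios of 1.04, 0.92 and 2.05. V1rf1 was thus the brightest of the 3 in the CREM channel, although none of its IgG signals was well above background.

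On chromosome 13, V1rh18 (Vmn1r212, chr13:22976254-22976730) had 1.52 from probes at 1.86, -0.023 and 1.52, and V1rh21 (Vmn1r197) had 1.16 from probes at 1.19, 1.16 and 0.55. V1rh14 and V1rh10 came next on array 2 but below the threshold, at 0.90 and 0.84. In V1re, V1re9 (Vmn1r69) on chromosome 7 had 1.52 from probes at 1.86, 1.52 and 0.18, and V1re2 (Vmn1r226) on chromosome 17 had 1.14 from probes at 1.14, -0.21 and 1.65. Repeated control spots, the one measure of technical spread on these arrays, had a median SD of 0.14 (array 1) and 0.12 (array 2) on the log2 scale. Whether this spread holds for probes with IgG near background, as in the called windows, was not tested.

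On the IgG side V1rf2 was lowest, at -1.31, with CREM signals of 937, 366 and 874 against IgG signals of 1182, 892 and 2511 and ratios of -0.35, -1.31 and -1.54. V1re7 (Vmn1r231, chr17:21029862-21030558) had -1.02, with CREM signals of 205, 362 and 184 against IgG signals of 410.5, 888 and 357. Both windows had 3 probes that were bright (well above background in CREM and in IgG), which held for none of the 18 windows on the CREM side. The third gene, V1rc6, had probes at 1.11, -1.12 and -1.03, and only the middle one was well above background in IgG. Just above -1 lay V1ri4 (Vmn1r201) at -0.98, V1rd6 (Vmn1r65) at -0.97, Vmn2r1 at -0.93, V1re13 (Vmn1r71) at -0.91, V1rg4 (Vmn1r76) at -0.91, V1rg7 (Vmn1r78) at -0.89, V1rg1 at -0.88, V1re5 at -0.87, V1rc3 (Vmn1r11) at -0.85 and V1rh7 (Vmn1r206) at -0.82. V1re5 was also the V1R gene nearest the median on the CREM side, with a highest window of 0.47.

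The 5 V2R genes were thinly covered, with 42 used probes. Vmn2r1, of the V2R family that is expressed together with other V2Rs across basal neurons, had 14 windows between -0.93 and 0.91. Its highest window had 0 probes well above background in IgG and its lowest had all 3. Vmn2r89 had 1 window, at -0.041, with probes at -0.15, -0.041 and 0.67, all bright in both channels. Vmn2r10, Vmn2r26 (known for responses to MHC-binding peptides) and Vmn2r81 had 4, 3 and 4 used probes and no window, with probe medians of 0.47, 0.71 and 0.30.

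**Figure D2:**
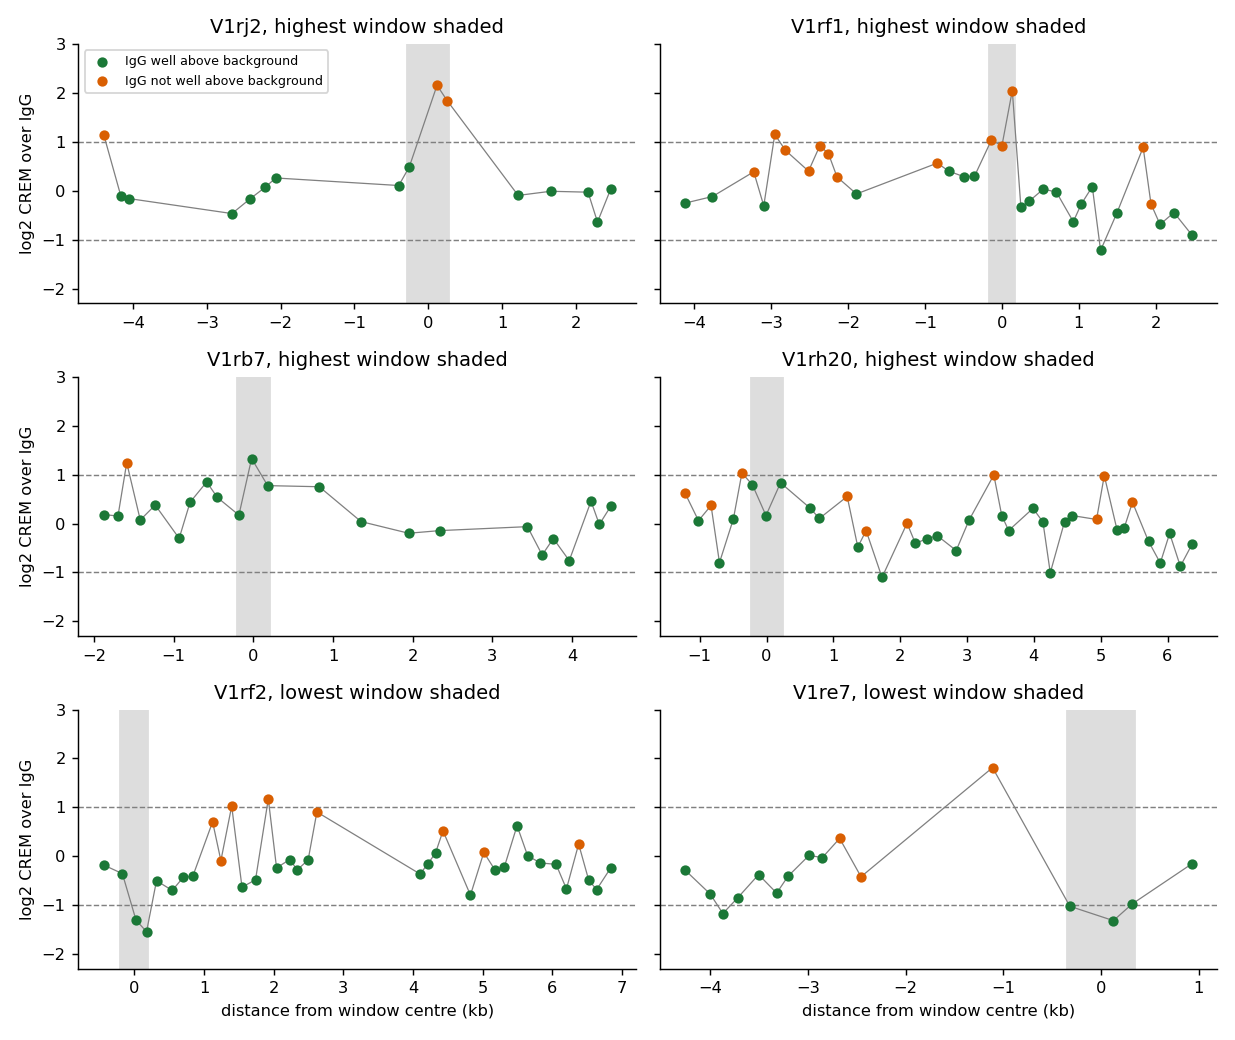
Log2 CREM over IgG of every used probe of 6 receptor genes, against the distance in kb of the probe from the centre of the shaded window. Dashed lines mark 1 and -1. In V1rj2 and V1rf1 the high probes are ones with IgG not well above background (orange), in V1rb7 and V1rh20 the shaded windows hold 3 bright probes (green) with medians under 1, and in V1rf2 and V1re7 the low windows hold 3 bright probes.

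Most receptor probes that passed 2-fold toward CREM had an IgG signal not well above background, but most probes dim in IgG did not pass. Among 599 receptor probes whose IgG signal was not well above background, 134 were at 1 or above (22.4%, interval 19.1% to 25.9%), against 29.2% of all such probes. Among the 1277 with IgG well above background, 6 were (0.470%, interval 0.173% to 1.02%), against 0.706% of olfactory receptor probes and 4.86% of all. Toward IgG the order was the other way, with 8 (1.34%) and 48 (3.76%) at -1 or below, against 1.26% and 7.74% of all probes. IgG is the denominator of the ratio, and a probe dim in IgG was used only where its CREM signal was well above background, so the split and the ratio are not independent. Among receptor probes before this filter, 90.1% were well above background in CREM and 61.4% in IgG, against 95.9% and 77.9% of all probes. Olfactory receptor probes were close to the receptors, at 88.6% and 61.3%.

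**Figure D3:**
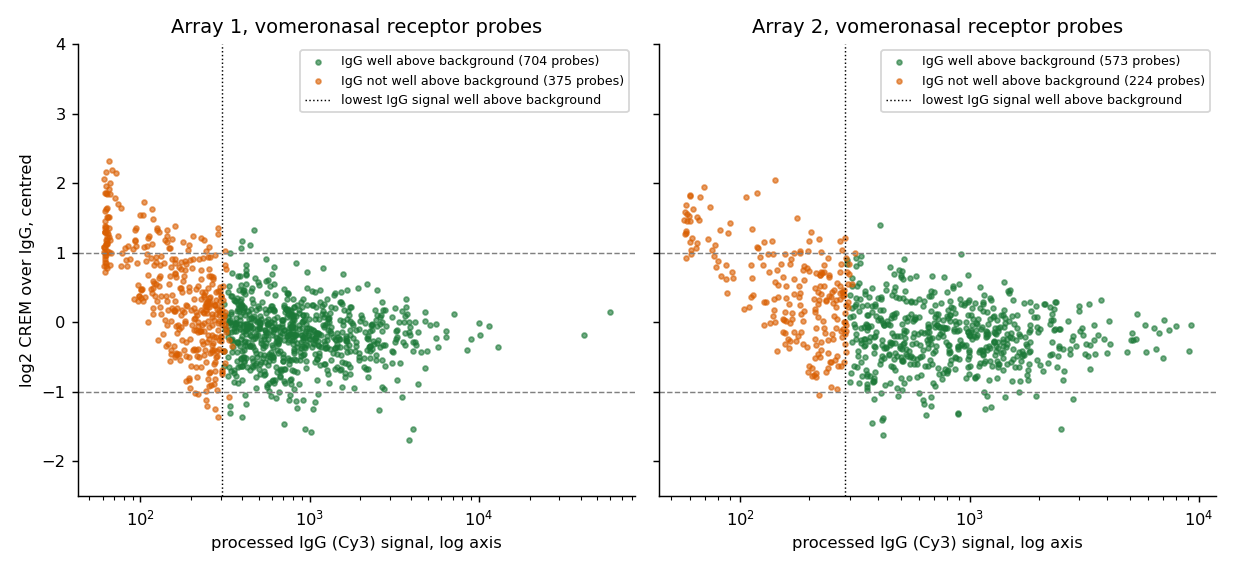
Log2 CREM over IgG of the vomeronasal receptor probes against their processed IgG signal (log axis), for array 1 and array 2. Points left of the dotted line lie below the lowest IgG signal that was well above background, 306 and 288. The cloud rises toward the left, and 6 of the probes with IgG well above background (green) reach 1.

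Of the 18 called windows on the CREM side, none had 3 bright probes. The IgG signal was well above background at 1 of the 3 probes in 13 windows and at none in 5. Among the called olfactory receptor genes 3 of 149 (2.01%) had 3 such probes, and among all called genes 1713 (28.7%) did. The median of the called receptor windows was 272 for the CREM signal and 111 for the IgG signal. In 15 of the 18 at least 1 IgG value was a surrogate, which the scanner software writes in place of a signal that does not exceed its noise estimate.

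An IgG signal not well above background gives only a bound on the ratio. Approximate bounds were set by raising each such signal to at least the lowest one well above background, 306 on array 1 and 288 on array 2, a step chosen after seeing the data. With it 0 of the 18 windows stayed at 1 or above, and the CREM signal of 10 windows lay below that lowest IgG signal. In 5 genes CREM was still above IgG with the raised signals. The ratios were then 1.98-fold at V1rf1, 1.47-fold at V1rh21, 1.34-fold at V1rc20, 1.12-fold at V1rg8 and 1.06-fold at V1rc6. They are not strict lower bounds, as a dim signal can lie above that level (IgG 316 at a V1rh20 probe on array 2). For the other 13 genes no fold can be given. On the IgG side every probe of the 3 called windows was well above background in CREM, so no bound for dim CREM signals was needed there. At V1rc6, however, the value of -1.03 came from a probe whose IgG signal was not well above background (CREM 109, IgG 219). Its fold toward IgG is therefore uncertain.

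Where both channels were bright, receptor windows stayed under 2-fold toward CREM. None of the 408 receptor windows with 3 bright probes was at 1 or above, which allows a share of up to 0.735%, against 0.149% of 4692 such olfactory receptor windows and 3.85% of all. At -1 or below there were 3 (0.735%), against 1.66% of olfactory receptor windows and 6.42% of all. The highest were V1rh20 at 0.79, with CREM signals of 787, 773 and 529.7 against IgG signals of 450.0, 681 and 293, and V1rb7 (Vmn1r40, chr6:89661671-89662089) at 0.77. V1rb7 had ratios of 0.17, 1.33 and 0.77, with CREM signals of 2796, 1205 and 2094 against IgG signals of 2441, 472 and 1204. Lower among genes whose highest window was bright came V1re5 at 0.47, V1rh7 at 0.34, V1rb1 (Vmn1r50) at 0.22 and V1rc13 (Vmn1r38) at 0.17.

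Single bright probes at 1 or above were found in 6 receptor genes. V1re1 on chromosome 17 had 1.39 (CREM 1084, IgG 408), V1rb7 had 1.33, V1rb10 had 1.17 (CREM 913, IgG 399), V1rb4 had 1.12 (CREM 981, IgG 445), V1rl1 had 1.07 (CREM 839.9, IgG 392) and V1re13 had 1.00 (CREM 692, IgG 340.1). None of these genes had a highest window at 1 or above, so the neighbours of these probes were lower. The sequences of the 2 highest are given, V1re1 from chromosome 17 and V1rb7 from chromosome 6.
V1re1 probe, chr17:20951419-20951478: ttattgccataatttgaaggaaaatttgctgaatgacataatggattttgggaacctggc
V1rb7 probe, chr6:89661834-89661882: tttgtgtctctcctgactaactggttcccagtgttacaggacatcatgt

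**Figure D4:**
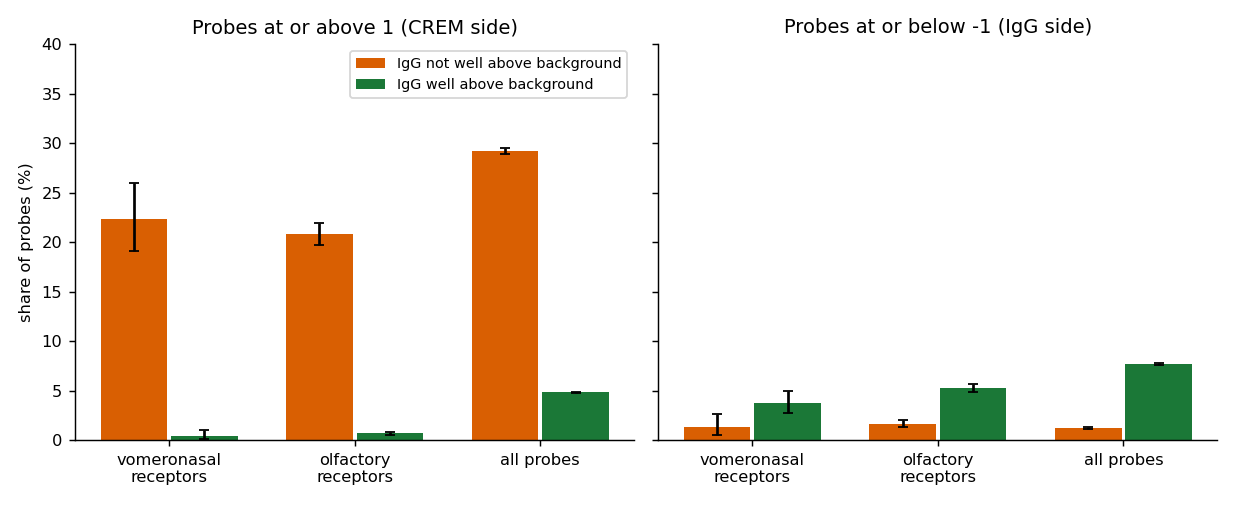
Share of probes at 1 or above (left) and at -1 or below (right) among vomeronasal receptor, olfactory receptor and all used probes, split by whether IgG was well above background. Bars start at 0 and error bars are exact 95% binomial intervals. Among probes bright in IgG, 0.470% of vomeronasal receptor probes reach 1, against 4.86% of all.

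Adjacent receptor probes moved together less than all probes did. Over 1186 pairs of receptor probes within 300 bp, the Pearson correlation of the ratios was 0.25, against 0.25 for olfactory receptors and 0.42 for all probes. Where both probes were bright in both channels it was 0.40 over 617 pairs, against 0.38 and 0.51. These correlations are across probes within 1 hybridisation and describe it only.

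The receptor probes were poor in G and C and in CG pairs. Their mean GC content was 35.2%, against 36.2% for olfactory receptors and 42.4% for all probes, and they held 0.217 CG pairs per probe, against 0.245 and 0.719. Only 6 receptor windows (0.536%) had a GC content above 44%, where 36.8% of all windows lay. In the 508 receptor windows of 32% to 36% GC, 2.36% (interval 1.23% to 4.09%) were at 1 or above, against 2.47% of olfactory receptor windows and 6.64% of all windows. In the 395 of 36% to 40% GC, 2.03% (interval 0.878% to 3.95%) were, against 2.37% and 7.48%. In these classes the share toward CREM was lower than that of all windows and near that of olfactory receptors. In the 133 receptor windows of at most 32% GC it was not set apart, at 5.26% (interval 2.14% to 10.54%), against 3.44% of olfactory receptor windows and 5.93% of all. Toward IgG, 0.197% (interval 0.00498% to 1.09%) and 0.506% (interval 0.0614% to 1.82%) of receptor windows of 32% to 36% and 36% to 40% GC were called, against 0.842% and 0.429% of all windows, which lie within those intervals.

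The full element TGACGTCA was in 0 of the 1876 used receptor probes, which allows a share of up to 0.160%, against 0.0570% of all used probes, so its absence is within what counting allows. The core TGACG or CGTCA, searched on both strands and also counted where it lies within the full element, was in 16 receptor probes of 16 genes (0.853%, interval 0.488% to 1.38%). It was in 0.999% of olfactory receptor probes and 2.08% of all. The 16 had a median ratio of -0.022, against -0.072 for receptor probes without the core. One was at 1 or above and 1 at -1 or below, and the 8 that were bright in both channels did not exceed 0.25. The highest, the next highest and the lowest are shown with the core in capitals.
V1rf3 probe, chr17:21448351-21448410: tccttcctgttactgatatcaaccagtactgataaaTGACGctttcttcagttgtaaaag
V1rh20 probe, chr13:22946731-22946790: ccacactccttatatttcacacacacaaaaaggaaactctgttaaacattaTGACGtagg
V1rc14 probe, chr6:66560480-66560539: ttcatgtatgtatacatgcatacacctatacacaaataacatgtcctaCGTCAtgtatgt
Their ratios were 1.16 (CREM 313, IgG 138), 0.99 (CREM 636, IgG 316) and -1.02 (CREM 106, IgG 211). In none of the 3 was IgG well above background, and the V1rf3 probe is part of that gene's called window.

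RefSeq promoter sequences, 250 bases before to 50 after each start, were found for 97 of the genes. The core was in 7 of them (7.22%), against 5.59% of olfactory receptor promoters and 20.8% of all promoters, and the full element in 0, against 0.105% and 1.79%. The 7 were V1rc14, V1rl1, V1rj3, V1ri4, V1rh18, V1ri10 and V1re2. Of these, V1rj3, V1rh18 and V1re2 had a called window toward CREM, as did 19.1% of receptor genes with a window and 34.4% of all genes. None of these called windows held the core, and a link between core and call was not tested. A total of 69 used probes matched the promoters of 54 receptor genes. Of these probes 4 (5.80%, interval 1.60% to 14.2%) were at 1 or above and 0 at -1 or below, against 11.5% and 22.9% of all promoter probes. For olfactory receptors the shares were 6.15% and 4.01%.

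The 4 promoter probes lay at Vmn2r10 (1.70, CREM 242 and IgG 73.4), V1ri10 (1.62, CREM 195 and IgG 62.4), V1rj3 (1.05, CREM 191 and IgG 90.7) and V1rf1 (1.04, CREM 578 and IgG 278). None had IgG well above background, and none of the 34 receptor promoter probes that were bright in both channels reached 1. V1rf1 kept the largest ratio among the called windows once dim IgG signals were raised, and 2 of the 3 probes of its window matched its promoter. That promoter is given below from RefSeq's GRCm38.p6 table, on the + strand at chr17:21228576-21228875, with the bases of those 2 probes in capitals. It holds neither the full element nor the core.
V1rf1 promoter: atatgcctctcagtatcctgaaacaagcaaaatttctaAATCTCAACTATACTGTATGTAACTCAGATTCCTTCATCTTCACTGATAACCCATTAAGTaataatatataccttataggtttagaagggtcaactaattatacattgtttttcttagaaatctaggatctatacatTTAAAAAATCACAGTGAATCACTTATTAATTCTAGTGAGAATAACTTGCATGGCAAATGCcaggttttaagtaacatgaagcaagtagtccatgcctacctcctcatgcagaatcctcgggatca

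The receptor genes fell into 16 groups along the chromosomes, separated by more than 500000 bp without a receptor probe, and 10 of these groups held 2 or more genes. The group of 20 genes on chromosome 6 from 56932443 to 58388629 had 12 with a window. Of those, 7 were called on the CREM side, all V1rc, to be read against 34.4% of all genes. The 16 genes on chromosome 6 from 89659974 to 90221367 (14 with a window) held none. Nor did the 7 on chromosome 7 from 24416098 to 24841330, all with a window. Other genes that lie among the receptors were measured by probes nearby. Lancl2, in the V1rc group, had a highest window of 2.46 over 3 bright probes, with median signals of 10005 for CREM and 1533 for IgG. Ppp2r1a, a scaffold subunit of protein phosphatase 2A within the chromosome 17 group, had 1.83 over 3 bright probes. Zik1, a zinc finger gene, had 1.44 with 1 bright probe. Of the 10 other genes with a window inside the groups, 3 were at 1 or above (34.4% of all genes). On the other side 3 (Pigy, Ppm1k and AW146242) were at -1 or below (33.6% of all genes). Lancl2 and Ppp2r1a, named after their values were seen, had bright windows past 2-fold toward CREM. The receptors' own bright windows did not reach 1, and a difference between these genes and the receptors was not tested.

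Receptor genes are near copies of each other, and a probe can bind the DNA of a relative. Among the 2080 receptor probes, 23 matched a probe of another receptor gene over at least 50 bases at 85% identity or more, in 12 pairs. The closest pair was of V1rc19 and V1rc20 at 91.5% identity, with ratios of -0.074 and -0.32. None of the 23 lay in a called window. The genome itself was not searched, so copies outside the arrays' probes are not counted.

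Genes of vomeronasal signalling were called on both sides, and no test set them against the receptors. Of 20 genes in a list of signal transduction components, 18 had a window, with 4 highest windows at 1 or above (34.4% of all genes) and 9 lowest windows at -1 or below (33.6% of all genes). Gnao1, the G protein subunit of V2R neurons, had 1.57 over probes from 1.01 to 1.72, with 2 of the 3 bright. Adcy2, an adenylyl cyclase, had 1.26 over probes from 0.98 to 1.57, with 3 bright probes. Hcn2, a pacemaker channel, had 1.10 without a bright probe and -1.62 on the other side, and Itpr3, an inositol trisphosphate receptor, had the lowest window of the list at -2.04. Gnai2, the subunit of V1R neurons, fell just short at 1.00 (0.999) and had a lowest window of -1.56. The median of the highest windows was 0.57 and that of the lowest -0.997, against 0.48 and -0.46 for the receptors and 0.77 and -0.76 for all genes.

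In the list of wiring and development genes, 4 of 18 were at 1 or above (34.4% of all genes) and 13 at -1 or below (33.6% of all genes), and none of the 4 had 3 bright probes. They included the axon guidance receptor Robo2 at 1.63, Epha5 at 1.61 and its ligand Efna5 at 1.35, each with 1 or 2 bright probes. Efna5 also had the lowest window, -2.42. The GC content of these low windows was 48.8% at Itpr3, 77.0% at Hcn2 and 65.2% at Efna5, while Robo2 had a low window of -1.25 at 33.9% GC. Among all windows above 44% GC, where few receptor windows lay, 11.6% were at -1 or below, and the part of GC in the lists' counts was not tested. Among 8 vomeronasal MHC genes only B2m, the light chain of class I molecules, was called, at 1.11 with 3 bright probes (0.86 to 1.12). H2-M10.5 had 1.00 (0.999) with 1 bright probe, H2-M10.4 had 0.70 with 3, and no MHC gene was at -1 or below, the lowest being H2-M10.3 at -0.72 and H2-M1 at -0.70. Of 3 formyl peptide receptors, Fpr-rs6, which is expressed in vomeronasal neurons, had 1.42 with 1 bright probe, and Fpr1 and Fpr2 had 0.29 and 0.045.

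Among 4 pheromone ligand and carrier genes with a window none reached 1. The lipocalins Lcn4 and Lcn3 had highest windows of 0.86 and 0.55 and Mup5, a major urinary protein, -0.17, and Lcn3 had a lowest window of -1.17. Of 51 trace amine and taste receptor genes 10 were at 1 or above (1 with 3 bright probes) and 5 at -1 or below, against 34.4% and 33.6% of all genes. The bitter receptor genes Tas2r143 and Tas2r102 had 1.82 and 1.55, Tas1r1, a subunit of the umami receptor, had 1.38 with 3 bright probes, and Taar1 and Tas1r1 had the lowest windows at -1.28 and -1.22. The median highest and lowest windows of these chemoreceptors were 0.64 and -0.58.

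**Figure D5:**
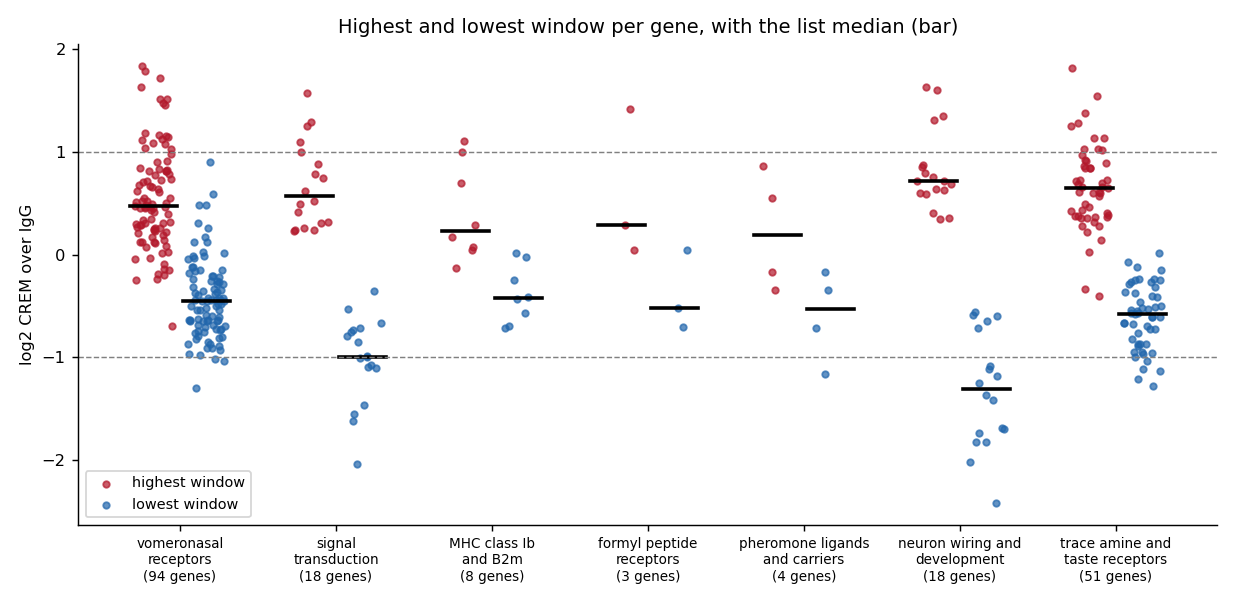
Highest (red) and lowest (blue) window, as log2 CREM over IgG, of each vomeronasal receptor gene and of each gene of 6 related lists. Black bars are medians and dashed lines mark 1 and -1. The lowest windows of the signal transduction and wiring lists reach -2.04 and -2.42, those of the vomeronasal receptors -1.31.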

How the data were processed

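The deposited scanner files hold, per the file headers, intensity from Agilent Feature Extraction 10.7.1.1, as scanned and after background subtraction with linear dye normalisation (the processed signal). Flag columns mark spots well above background. Per the file headers, a surrogate value stands in where a signal did not exceed the noise. Positions refer to mm9 (NCBI build 37). Log2 ratios make up the table of values the authors deposited, and the scanner's own log10 ratios, deposited by the authors in the scanner files, served only to check the processed signals. Background subtraction and within-array loess in limma returned it in scanner row order (largest difference 5e-08). R 2.10.1 and limma are named in the submitters' notes on processing.

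The ratio was log2 of processed Cy5 (CREM) over Cy3 (IgG), centred on each array's median (shifts of 0.024 and 0.019), without loess. Control spots, outliers (46 and 9), probes without a position (301 and 417) and probes dim in both channels (8573 and 10355) were left out, leaving 228275 and 226404. No probe was repeated, so spread was taken over control probes spotted 12 times or more. The number of arrays limits the precision. Before dye normalisation the median net signal was 125 in Cy5 and 34.7 in Cy3 on array 1, and 105 and 29.8 on array 2.

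Named genes were, per array, the 8 highest and 5 lowest receptor genes, the 3 highest and 3 lowest with 3 bright probes, those nearest the V1R and V2R medians, and the 3 highest and 2 lowest of each of 6 lists. Other called genes, bright probes and genes inside the groups were named after their values were seen. The members, lists and this rule were chosen with earlier results of these data known. Some genes that this rule names are not reported here. Close probe matches were found with blastn 2.17.0. Shares have exact binomial intervals. Code ran in Python 3.11.15, pandas 2.3.3, scipy 1.17.1, R 4.3.3 and limma 3.58.1 and was tested on simulated data. Other settings were normexp (offset 50), the authors' values, no centring, other filters on dim probes, windows of 5 probes, a gap of 300 bp, the mean, GC removal (bins of 2%), no close matches, windows wholly of the gene and a threshold of 1.5. Raised dim signals were added after seeing the data.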

Additional observations from a re-analysis of the deposited data

How the results depend on the processing

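The 18 receptor genes at 1 or above depended on dim IgG signals. Their number was 0 with normexp, 0 with probes bright in both channels (82 genes), 0 with dim IgG signals raised to the lowest well above background (chosen after seeing the data), 1 with the authors' values, 1 with windows of 5 probes, 11 with a gap of 300 bp, 11 with the mean and 6 at a threshold of 1.5. It was 14 to 19 under the 5 other settings run for this side. Under normexp, probes bright in both channels and the raised signals the share of all genes was 16.2%, 20.8% and 21.3%. That of olfactory receptor genes was 0.503%, 1.37% and 1.13%. With the authors' values and windows of 5 probes, 17.1% and 19.8% of all genes and 1.26% and 4.10% of olfactory receptor genes were called. With the gap of 300 bp, the mean and the threshold of 1.5 it was 31.6%, 33.6% and 14.1% of all genes. For olfactory receptor genes these shares were 15.7%, 14.6% and 2.77%. Olfactory receptors thus also lost most called genes under the first 5 of these settings. The 3 genes at -1 or below became 0 with normexp, the authors' values, windows of 5 probes and the threshold of 1.5. Under these settings the share of all genes was 3.7%, 22.03%, 17.7% and 13.6%, so it also fell most under normexp. For olfactory receptor genes it was 0%, 0.881%, 3.01% and 0.503%. With bright probes 1 receptor gene was called, against 28.6% of all genes and 5.34% of olfactory receptor genes. Without the filter on dim probes 19 were (19.2%), against 37.8% and 24.5%. With the GC trend removed 10 were, against 12.6% of all genes and 18.4% of olfactory receptor genes. Raising IgG signals can only lower a ratio, so it bounds no low window. With it 23 receptor genes were at -1 or below (24.5%), against 41.5% of all genes. Raising dim CREM signals changed no count, as no probe of the 3 called windows was dim in CREM.

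The median highest window of 0.48 became 0.10 with normexp, 0.30 with the authors' values, 0.14 with bright probes, 0.29 with windows of 5 probes and 0.17 with the raised signals. The share of windows at 1 or above, 2.41%, became 0% with normexp, bright probes and the raised signals, 0.0893% with the authors' values, 0.269% with windows of 5 probes, 0.982% with the mean, 1.43% without the GC trend and 0.536% at the threshold of 1.5. The share at -1 or below, 0.446%, became 0% with normexp, the authors' values, windows of 5 probes and the threshold of 1.5. Under these settings 0.34%, 2.7%, 3.38% and 1.48% of all windows were at -1 or below. The share of receptor windows became 2.22% without the filter, against 5.01% of all windows. Without the GC trend it was 1.61%, above the 1.24% of all windows. Of the named genes' highest windows at 1 or above, 4 changed sign, V1rf4 to -0.028 with normexp, V1rc28 to -0.31 with bright probes, and V1rc19 and V1rc5 to -0.056 and -0.19 with the raised signals. Among named highest windows short of 1, V1re7, V1rg1, V1rg4, V1rg7, V1rh7, V1rh10, Vmn2r1 and Vmn2r89 also changed sign under at least 1 setting. The raised signals moved the median of all windows to -0.11. Apart from settings that drop or raise dim signals by construction, the cause was not tested. No paired analysis was possible because each array was hybridised 1 time and no group has a replicate.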
